A study of Mus musculus with 48 samples.

Results

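Primary, or azurophil, granules are the first granules that a developing neutrophil makes, and 8 genes linked to these granules were followed across 48 arrays. The genes code for the oxidant enzyme myeloperoxidase (Mpo), the serine proteases proteinase 3 (Prtn3), neutrophil elastase (Elane) and cathepsin G (Ctsg), the promyelocyte membrane protein Ms4a3, the protease-activating enzyme cathepsin C (Ctsc), and the protease inhibitors Serpinb1a and cystatin F (Cst7). They were chosen by name, with earlier results of these data known, and every probe set annotated to 1 of them was taken, which gave 11 probe sets of the 45037 that are not array controls. All 11 passed the filter on low signal, as did 27167 probe sets of 12800 named genes in all. Ctsc had 3 probe sets, Serpinb1a had 2 and each other gene had 1; a gene is described by its brightest set unless another is named.

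The cells were mouse 32D cells, a line of myeloid progenitors, made to express the oncoprotein BCR/ABL, and all 4 lines carried it. Onto this background the MigRI retroviral vector brought C/EBPα joined to the estrogen receptor hormone-binding part (C/EBPα-ER), which 4-hydroxytamoxifen (4-HT) switches on. The 4 lines held the Δ(177-191) fusion, described by the labels as deficient in CDK2/CDK4 interaction, the K298E fusion, described as deficient in DNA binding, the wild-type (WT) fusion, or the empty vector. RNA was taken at 0, 6, 9 and 12 h after 4-HT from 3 samples of each line, and the vector line was treated with 4-HT too. Each construct is represented by 1 transduced line, so construct and line cannot be told apart, and p-values measure the spread between these arrays.

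In neutrophil development the primary granule genes are switched on at the promyelocyte stage, earlier than the genes of secondary granules. C/EBPα, PU.1 and MYB are textbook regulators of them. The serine proteases are made as inactive precursors, cathepsin C removes their amino-terminal dipeptide, and the serpin made from Serpinb1a inhibits elastase, proteinase 3 and cathepsin G in the cell. Cystatin F inhibits cysteine proteases, cathepsin C among them.

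The Δ(177-191) arrays stood apart from the others. Median signals were 11 to 19, and 0.324% to 3.4% of probe sets were at 0 in an array. On the first principal component, which held 55% of the variance, the 12 Δ(177-191) arrays lay at 33.6 to 62.6 and the arrays of the other 3 lines between -28.7 and -5, and this held at 0 h as well. At the brightest of its probe sets, mouse Esr1 averaged 3263 to 4017 in the Δ(177-191) groups, 860.3 to 1439 in K298E and 2107 to 2475 in WT. It averaged 14 to 18.67 in the vector groups. The fusion lines thus differed in this signal, and its part in the differences between them was not tested. Ptprc or Csf2rb, genes of blood cells and of the IL-3 receptor family, had the highest signal among 9 myeloid markers in every line. At 12 h the summed signal of 8 secondary granule markers, mostly Lcn2, was 6035 to 8113 in Δ(177-191) arrays and 189 to 212 in vector arrays. At 0 h it was 3127 to 3569 and 535 to 571. Lcn2 averaged 2880 at 0 h and 6483 at 12 h in Δ(177-191) cells. Of the 5 markers tested in this line, 2 were called higher and 3 lower at 12 h than at 0 h, with a median change of -0.77. In that comparison 25.2% of all probe sets were called. The part of these markers in the Δ(177-191) results was not tested.

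Mpo, the peroxidase that makes hypochlorous acid, was induced late in the WT line. In WT cells its signal was 18, 14 and 17 at 0 h, 32, 28 and 22 at 6 h, 148, 157 and 175 at 9 h, and 366, 388 and 401 at 12 h. No later WT array overlapped with those at 0 h, and the arrays of each later time were all above those of the time before. At 12 h the signal was 10, 14 and 23 in Δ(177-191) cells, 33, 26 and 16 in K298E cells, and 8, 23 and 7 in vector cells, where the 3 lines overlapped. The relative change used below is the change of log2(signal + 3) from 0 h in a fusion line minus that in vector cells, tested with limma and adjusted over all 27167 probe sets by Benjamini-Hochberg. For Mpo it was 0.58 ± 0.57 (SE) in WT cells at 6 h (limma adjusted p = 0.761), 2.96 ± 0.57 at 9 h (adjusted p = 0.000344) and 4.61 ± 0.57 at 12 h (adjusted p = 7.89e-08), the last a 24.4-fold change. From 6 h to 12 h WT cells gained 3.69 ± 0.40 (adjusted p = 4.95e-09), in a comparison where 3 of the 8 genes and 11.5% of all probe sets were called. The Δ(177-191) signals at 6 h were 12, 2 and 4, and the change from 6 h to 12 h passed in this line too, at 1.15 ± 0.40 (adjusted p = 0.0444), with 2 of the 3 arrays at 12 h above all at 6 h, in a comparison where 4 of the 8 genes and 14.8% of all probe sets were called. From its own 0 h the Δ(177-191) change at 12 h was 0.73 (adjusted p = 0.207). The relative changes of the 3 fusion lines share the vector arrays. Adding 3 before the log understates the change of low signals. In K298E cells the relative change at 12 h was 0.15, with a 95% interval of -0.99 to 1.29, and in Δ(177-191) cells 1.0, with an interval of -0.14 to 2.15. Without the third Δ(177-191) array at 0 h, whose signal was 20, the Δ(177-191) value was 1.55 (adjusted p = 0.0491).

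Prtn3, which codes for proteinase 3, moved in all 4 lines and in opposite directions. In K298E cells the signals were 702, 646 and 718 at 0 h, 2013, 2020 and 2268 at 6 h, 2136, 1576 and 1707 at 9 h, and 2009, 1950 and 1113 at 12 h. In WT cells they were 710, 603 and 660 at 0 h, 2473, 1836 and 1708 at 6 h, 2796, 2597 and 2393 at 9 h, and 2646, 2532 and 2491 at 12 h. Each of the 9 later arrays was above every array at 0 h in both lines, and the third K298E array at 12 h was the lowest of them. In Δ(177-191) cells the signals were 377, 377 and 382 at 0 h, 255, 281 and 286 at 6 h, 165, 173 and 149 at 9 h, and 175, 169 and 172 at 12 h. In vector cells they averaged 339 ± 41.5 at 0 h (SD, n = 3) and were 202, 172 and 183 at 6 h, 207, 212 and 190 at 9 h, and 223, 216 and 234 at 12 h. In these lines each of the 9 later arrays was below every array at 0 h. The 4 lines therefore split into a pair in which Prtn3 rose and a pair in which it fell.

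Measured against its own 0 h, Prtn3 rose by 1.60, 1.38 and 1.24 on the log2 scale in K298E cells at 6, 9 and 12 h, and by 1.59, 1.98 and 1.96 in WT cells (SE 0.13 each). Over the same times it fell by 0.46, 1.21 and 1.13 in Δ(177-191) cells and by 0.86, 0.73 and 0.58 in vector cells, and all 12 changes passed the threshold (limma adjusted p from 7.03e-16 to 0.00632). Without replicate 2 the Δ(177-191) change at 6 h (-0.49, adjusted p = 0.0695) and the vector change at 12 h (-0.55, adjusted p = 0.0665) did not pass. The relative change of Prtn3 was 2.46, 2.10 and 1.83 in K298E cells and 2.44, 2.70 and 2.54 in WT cells (SE 0.19 each), with adjusted p from 2.72e-14 to 3.3e-09. In Δ(177-191) cells the relative change was 0.39 at 6 h, -0.48 at 9 h and -0.54 at 12 h, and the last alone passed (adjusted p = 0.0372). That call was lost in 15 of the alternative fits, among them those without any 1 of the 6 Δ(177-191) arrays at 0 and 12 h, vector array 2 or 3 at 0 h, or vector array 1 or 3 at 12 h (adjusted p from 0.0525 to 0.128). At 6 h the relative change was 5.5-fold in K298E cells and 5.44-fold in WT cells.

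Ctsg, which codes for cathepsin G, was induced in WT cells. Its WT signals were 30, 33 and 30 at 0 h, 72, 55 and 67 at 6 h, 94, 107 and 84 at 9 h, and 142, 155 and 133 at 12 h, with no overlap between the times. At 12 h they were 12, 1 and 13 in Δ(177-191) cells, 28, 38 and 21 in K298E cells, and 3, 1 and 3 in vector cells. The WT change from 0 h was 0.99 ± 0.42 at 6 h (limma adjusted p = 0.0796), 1.52 ± 0.42 at 9 h (adjusted p = 0.0047) and 2.10 ± 0.42 at 12 h (adjusted p = 0.000102). Relative to vector cells the WT change passed at 12 h, at 2.41 ± 0.59 (adjusted p = 0.00663). It was 2.25 without replicate 1 (adjusted p = 0.144) and 2.25 without replicate 2 (adjusted p = 0.0786), while the change from the line's own 0 h at 12 h passed without each of the 3 replicates in turn. That at 9 h did not pass without replicate 1 (1.5, adjusted p = 0.0588). In K298E cells the relative change at 12 h was 0.28, with a 95% interval of -0.92 to 1.47, and in Δ(177-191) cells -0.33, with an interval of -1.52 to 0.87.

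Elane, the elastase gene, and Ms4a3 were near the bottom of the signal scale in every line. Elane signals ran between 1 and 25. The WT arrays at 9 h, at 25, 15 and 20, were above those at 0 h, at 9, 2 and 8, and the WT arrays at 12 h were 13, 7 and 15. The WT change was 1.38 ± 0.53 at 9 h (limma adjusted p = 0.0525) and 0.71 ± 0.53 at 12 h (adjusted p = 0.386), and neither passed. Ms4a3 signals ran between 2 and 30. Its WT arrays at 12 h overlapped with those at 0 h, and its WT relative change at 12 h was -0.10, with a 95% interval of -1.44 to 1.24. Elane and Ms4a3 passed in none of the comparisons given here at the main settings. Elane passed the filter on low signal through the WT group at 9 h alone, so that its value there is no support for a change. That value was 1.61 without the first WT array at 0 h (adjusted p = 0.0473), and it also passed in 5 other alternative fits.

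Ctsc, whose product activates the granule serine proteases, was well expressed before 4-HT and changed little. At its brightest probe set, 1416382_at, the Δ(177-191) signals were 3243, 3448 and 3854 at 12 h and 3264, 2709 and 2820 at 0 h, which overlapped. In WT cells they were 2398, 2162 and 2135 at 12 h and 2793, 3137 and 3368 at 0 h, which did not. In K298E cells all 12 arrays lay between 2228 and 3060. The WT change was -0.38 ± 0.12 at 9 h (limma adjusted p = 0.0182) and -0.47 ± 0.12 at 12 h (adjusted p = 0.0026), a fall by 1.39-fold at 12 h. The Δ(177-191) change was 0.34 ± 0.12 at 6 h (adjusted p = 0.0334), 0.46 ± 0.12 at 9 h (adjusted p = 0.0034) and 0.26 ± 0.12 at 12 h (adjusted p = 0.12). Relative to vector cells no Ctsc change passed at this probe set in any line, and the WT value at 12 h was -0.50 ± 0.17 (adjusted p = 0.0885). The calls from 0 h were lost with median centring at 6 h (Δ(177-191), 0.21), at 9 h (Δ(177-191), 0.33, and WT, -0.29) and at 12 h (WT, -0.27). Single arrays also decided them: adjusted p was 0.104 to 0.169 without Δ(177-191) array 2 or 3 at 0 h or 1 or 3 at 6 h, 0.0783 at 9 h without Δ(177-191) array 1 at 9 h, and 0.0538 to 0.122 for WT at 9 h without WT array 2 or 3 at either time. Without replicate 2 or 3 the WT call at 12 h was lost (adjusted p = 0.0534 and 0.109).

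Serpinb1a, the inhibitor of the same proteases, fell in WT cells. At probe set 1416318_at the WT signals were 2594, 2618 and 2976 at 0 h, 1778, 2021 and 1884 at 6 h, 1122, 1348 and 1314 at 9 h, and 1390, 1248 and 1238 at 12 h. All 9 later WT arrays were below those at 0 h. In K298E cells the signals were 2550, 2939 and 2858 at 12 h and 2790, 2646 and 2647 at 0 h. In vector cells they were 3102, 3071 and 3171 at 12 h and 2583, 2898 and 2684 at 0 h, so that no WT array after 4-HT reached the level of either line. The WT relative change was -0.78 ± 0.17 at 6 h (limma adjusted p = 0.00211), -1.30 ± 0.17 at 9 h (adjusted p = 3.69e-07) and -1.27 ± 0.17 at 12 h (adjusted p = 4.61e-07). In K298E cells it was -0.04, -0.04 and -0.15 at the 3 times, with a 95% interval of -0.49 to 0.19 at 12 h. The WT value at 6 h was -0.62 with every array centred on its median (adjusted p = 0.424) and -0.75 without replicate 3 (adjusted p = 0.132).

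Δ(177-191) cells began with less Serpinb1a. Their signals were 1058, 1018 and 992 at 0 h, 1676, 1915 and 1806 at 6 h, 901, 1683 and 1454 at 9 h, and 1496, 1415 and 1308 at 12 h, all below every vector array. From their own 0 h they rose by 0.81 ± 0.12 at 6 h (limma adjusted p = 6.45e-07), by 0.35 at 9 h (adjusted p = 0.0257) and by 0.46 at 12 h (adjusted p = 0.00298). Relative to vector cells the change passed at 6 h, at 0.56 ± 0.17 (adjusted p = 0.0187), and this call was lost in 6 of the alternative fits, with 0.51 each without vector array 2 at 0 h (adjusted p = 0.0554), vector array 3 at 6 h (adjusted p = 0.0588) or Δ(177-191) array 2 at 6 h (adjusted p = 0.0517). The change from 0 h at 9 h was lost without Δ(177-191) array 2 or 3 at 0 h or at 9 h (adjusted p from 0.0622 to 0.365). That at 12 h was lost with median centring (0.46, adjusted p = 0.115) and without replicate 3 (0.49, adjusted p = 0.0562). At 9 h the first Δ(177-191) array, at 901, was the lowest of the line, and without it the relative change at 9 h was 0.42 (adjusted p = 0.0188).

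Cst7, which codes for the cysteine protease inhibitor cystatin F, was induced in Δ(177-191) cells, at 9 and 12 h and not at 6 h. Its Δ(177-191) signals were 39, 47 and 45 at 0 h, 23, 46 and 38 at 6 h, 387, 309 and 319 at 9 h, and 418, 501 and 543 at 12 h. The 6 arrays at 9 and 12 h were above all 6 earlier ones. At 12 h the signals were 19, 27 and 21 in K298E cells, 121, 107 and 113 in WT cells, and 68, 56 and 62 in vector cells, and these lines did not overlap with Δ(177-191) or with each other. The relative change in Δ(177-191) cells was -0.02 ± 0.29 at 6 h (limma adjusted p = 0.983), 2.97 ± 0.29 at 9 h (adjusted p = 1.52e-10) and 3.90 ± 0.29 at 12 h (adjusted p = 7.99e-14), a 14.9-fold change. From 6 h to 12 h the line gained 3.71 ± 0.21 (adjusted p = 4.28e-17), in the same comparison as for Mpo. No alternative fit lost the calls at 9 and 12 h. In WT cells the relative change at 12 h was 0.77 ± 0.29 (adjusted p = 0.15). Cystatin F is made by several blood cell types, so the markers of other cells are given beside it. At 12 h the 5 eosinophil markers summed to 17 to 29 in Δ(177-191) arrays and to 26 to 30 in vector arrays. The 5 lymphoid and erythroid markers summed to 28 to 68 and 25 to 54. The 7 mast cell and basophil markers summed to 53 to 62 and 469 to 540, with vector Cpa3 at a mean of 475.7. The 9 monocyte and macrophage markers, mostly Adgre1, summed to 2203 to 2748 and 581 to 662. The lines already differed at 0 h, at 67 to 78 and 581 to 633 for the mast cell and basophil markers. For the monocyte and macrophage markers the sums at 0 h were 1309 to 1401 and 685 to 758. In bulk RNA, fewer cells of a type and less RNA per cell cannot be told apart, and the part of these markers in the Cst7 change was not tested.

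**Figure D1:**
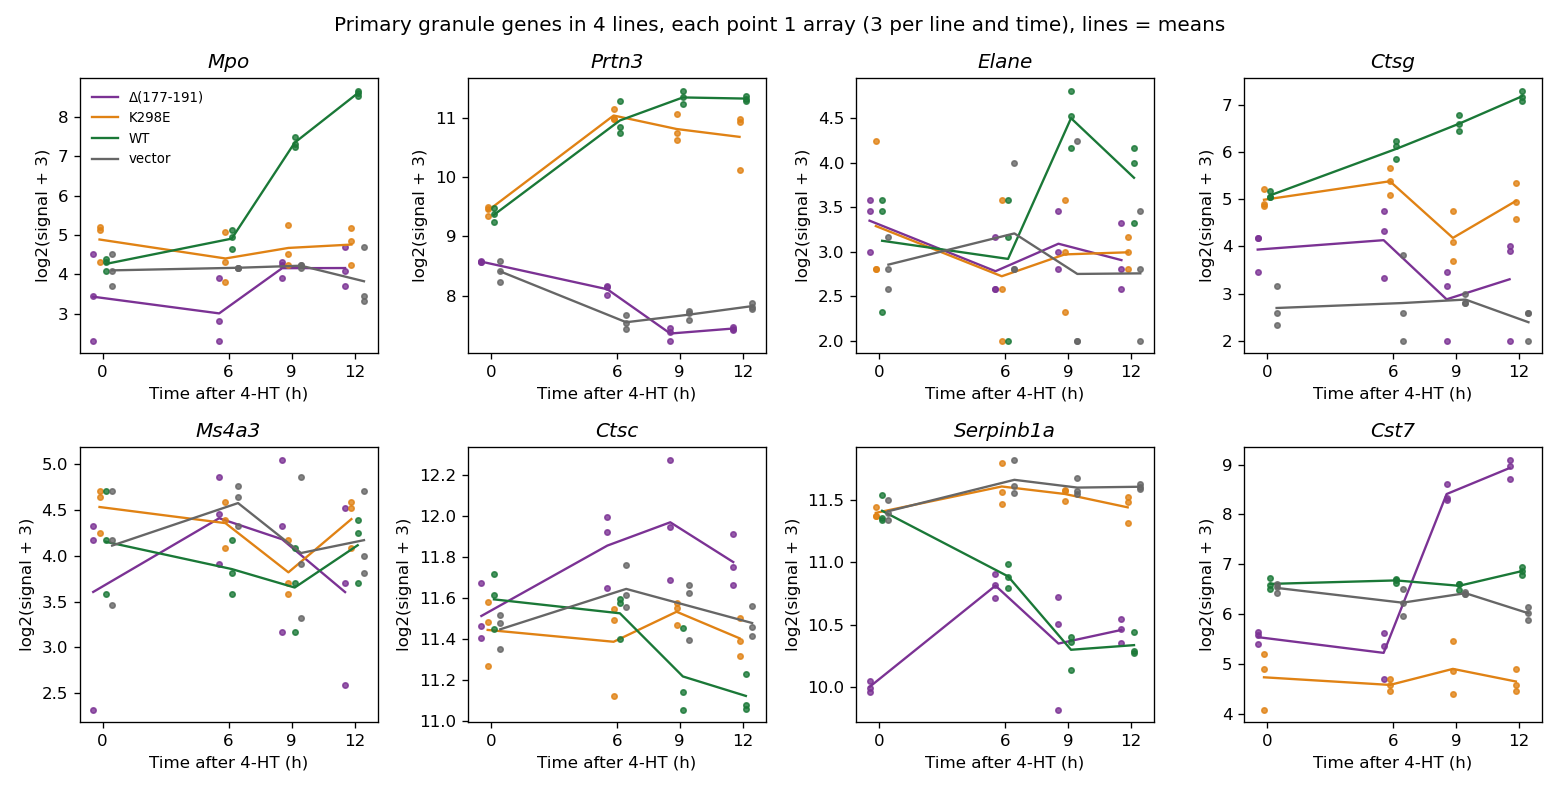
Signal of the 8 genes on the log2(signal + 3) scale against hours after 4-HT, with each array as a point and the mean of 3 arrays as a line, for the Δ(177-191), K298E, WT and vector lines. Mpo and Ctsg climb in WT cells, Prtn3 climbs in K298E and WT cells and declines in Δ(177-191) and vector cells, Serpinb1a declines in WT cells, and Cst7 climbs in Δ(177-191) cells after 6 h.

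Before 4-HT the lines already differed in 4 of the 8 genes. Prtn3 was higher than in vector cells by 1.02 ± 0.13 in K298E cells (limma adjusted p = 5.39e-07) and by 0.95 ± 0.13 in WT cells (adjusted p = 1.86e-06), or 2.03-fold and 1.94-fold. Ctsg was at 8, 15 and 15 in Δ(177-191) cells, 26, 27 and 34 in K298E cells, 30, 33 and 30 in WT cells, and 6, 3 and 2 in vector cells. All 9 arrays of the fusion lines were above the vector arrays, by 1.24 (adjusted p = 0.025), 2.30 (adjusted p = 0.000251) and 2.39 (adjusted p = 0.000127) in that order of lines. The Δ(177-191) call for Ctsg was lost in 8 of the alternative fits, among them those without Δ(177-191) or vector array 2 or 3 (adjusted p from 0.0725 to 0.118), and its value was 0.32 with a pseudocount of 32. The vector signals were near the bottom of the scale, so the sizes depend on the settings. Under other settings the Ctsg difference ran from 0.77 to 2.77 in K298E cells and from 0.82 to 2.87 in WT cells. No alternative fit lost the K298E and WT calls. Serpinb1a was lower in Δ(177-191) cells by a log2 difference of -1.41 ± 0.12 (adjusted p = 5.98e-13). Cst7 was at 39, 47 and 45 in Δ(177-191) cells, 14, 34 and 27 in K298E cells, 93, 88 and 103 in WT cells, and 83, 90 and 95 in vector cells, with a difference from vector cells of -0.99 (adjusted p = 0.000253) in Δ(177-191) cells and -1.79 (adjusted p = 5.1e-08) in K298E cells. Of the 8 genes 3 passed in Δ(177-191) cells, 3 in K298E cells and 2 in WT cells, where 23%, 4.82% and 4.06% of all probe sets passed.

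Over the 8 genes, the relative change was called for at most 2 in Δ(177-191) cells, 1 in K298E cells and 4 in WT cells at any time. In Δ(177-191) cells 1, 1 and 2 of 8 were called at 6, 9 and 12 h, where 13.9%, 17.3% and 17.1% of all probe sets were called. In K298E cells 1 of 8 was called at each time, always Prtn3, against 0.942%, 3.89% and 4.2%. In WT cells 2, 3 and 4 of 8 were called, against 4.77%, 4.62% and 5.38%. The 4 at 12 h were Mpo, Prtn3 and Ctsg, which were higher, and Serpinb1a, which was lower. The median relative change of the 8 genes at 12 h was 0.09 in Δ(177-191), 0.04 in K298E and 0.79 in WT cells, beside -0.01, 0.03 and -0.04 over all probe sets tested.

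The change from each line's own 0 h was also counted. In Δ(177-191) cells 3, 4 and 3 of 8 were called at 6, 9 and 12 h, and 24.6%, 26.8% and 25.2% of all probe sets. In K298E cells 1 of 8 was called each time, and 9.23%, 3.81% and 1.8% of all. In WT cells 2, 5 and 5 of 8 were called, and 26.1%, 24.9% and 25.4% of all. In vector cells 1 of 8 was called each time, which was Prtn3, and 15.5%, 14.9% and 13.6% of all. The WT genes at 12 h were Mpo, Prtn3 and Ctsg, higher, and Ctsc and Serpinb1a, lower. The Δ(177-191) genes at 12 h were Serpinb1a and Cst7, higher, and Prtn3, lower, which as a share of 8 is near that of all probe sets.

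**Figure D2:**
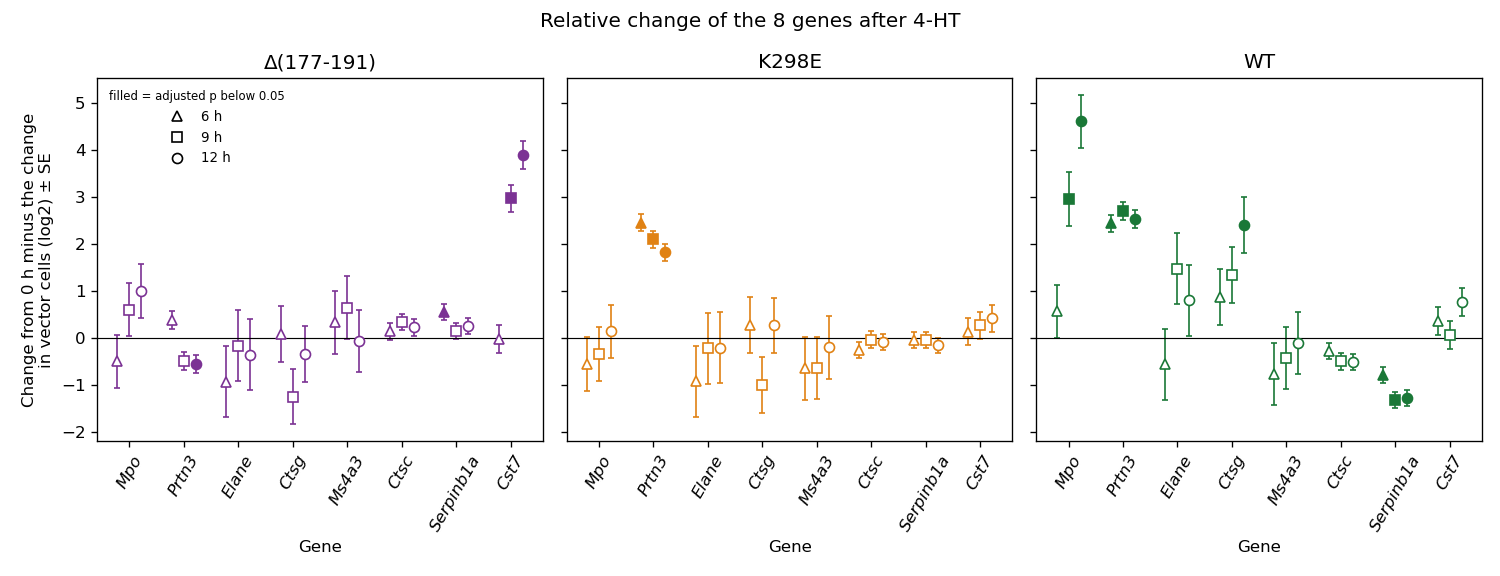
Relative change of the 8 genes, as the log2 change from 0 h minus that in vector cells with its SE, in the Δ(177-191), K298E and WT lines at 6 h (triangles), 9 h (squares) and 12 h (circles), filled where the limma adjusted p is below 0.05. Prtn3 is filled at all times in K298E and WT cells, Mpo reaches 4.61 in WT cells, and Cst7 reaches 3.90 in Δ(177-191) cells.

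The mutants were then set against WT directly, by the mean of the changes at 6, 9 and 12 h. Δ(177-191) cells differed from WT cells in 6 of the 8 genes, where 19.8% of all probe sets differed. The difference was -2.34 ± 0.46 for Mpo (limma adjusted p = 0.000134), -2.77 ± 0.15 for Prtn3 (adjusted p = 7.54e-18) and -2.03 ± 0.48 for Ctsg (adjusted p = 0.00138), all enzymes. It was 0.66 ± 0.14 for Ctsc (adjusted p = 0.000397), 1.44 ± 0.14 for Serpinb1a (adjusted p = 4.98e-11) and 1.88 ± 0.24 for Cst7 (adjusted p = 5.31e-08). With every array centred on its median the Ctsc difference was 0.46 (adjusted p = 0.0706). These are differences between changes from 0 h and not between levels: the mean change of the 3 enzymes was lower, and that of Ctsc and both inhibitors higher, in Δ(177-191) than in WT cells.

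K298E cells differed from WT cells in 3 of the 8 genes, where 13.7% of all probe sets differed. The difference was -2.96 ± 0.46 for Mpo (limma adjusted p = 6.07e-06) and -1.69 ± 0.48 for Ctsg (adjusted p = 0.0127), where the mean change was lower in K298E cells, and 1.04 ± 0.14 for Serpinb1a (adjusted p = 2.67e-07). The Ctsg difference did not pass without replicate 1 (-1.64, adjusted p = 0.118), replicate 2 (-1.74, adjusted p = 0.0539) or replicate 3 (-1.67, adjusted p = 0.06). For Prtn3 the difference was -0.43 ± 0.15, with a 95% interval of -0.74 to -0.12 and an adjusted p of 0.0507, just outside the threshold. It passed in 15 of the alternative fits, with values from -0.57 with median centring to -0.34 without the third K298E array at 12 h. Among these were 9 that each left out 1 WT or K298E array (adjusted p from 0.0199 to 0.0485). For Cst7 the difference was -0.12, with a 95% interval of -0.60 to 0.37, and for Ctsc 0.30, with an interval of 0.02 to 0.59 (adjusted p = 0.174).

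Probe sets of the same gene were compared where a gene had several. The dimmer Serpinb1a set, 1448301_s_at, whose name marks it as matching several transcripts, moved in WT cells as the brighter did. Its WT signals were 154, 139 and 152 at 12 h and 415, 395 and 441 at 0 h, and its relative change was -1.54 ± 0.16 at 12 h (limma adjusted p = 2.09e-09). In Δ(177-191) cells the dimmer set also passed relative to vector cells at 9 h, at 0.49 ± 0.16 (adjusted p = 0.0283), where the brighter set had 0.16 (adjusted p = 0.631). From 0 h to 6 h it rose in the Δ(177-191) line by 1.33, in K298E by 0.52 and in vector by 0.51. Among these lines the brighter set passed in Δ(177-191) alone. Serpinb1a has close relatives in the mouse genome, and which of them this set detects was not tested.

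The 2 dimmer Ctsc sets showed a larger change in WT cells than the bright set, and moved in vector cells too. At 1437939_s_at the WT signals were 23, 28 and 28 at 12 h and 59, 72 and 86 at 0 h. The vector signals were 53, 43 and 61 at 12 h and 76, 83 and 84 at 0 h. The change from 0 h at 12 h was -1.35 ± 0.19 in WT cells (limma adjusted p = 2.79e-07) and -0.61 ± 0.19 in vector cells (adjusted p = 0.0237). At 1446834_at it was -1.23 ± 0.23 in WT cells (adjusted p = 4.41e-05) and -0.48 ± 0.23 in vector cells (adjusted p = 0.187). Relative to vector cells neither set passed in WT cells at 12 h, at -0.74 and -0.75, while 1437939_s_at passed in Δ(177-191) cells at 0.76 (adjusted p = 0.0435). All 3 sets thus fell in WT cells from 0 h. In Δ(177-191) cells they did not move alike. There the signals of 1446834_at were 63, 76 and 70 at 0 h and lower at 9 h, at 51, 53 and 59. The bright set averaged 2931 at 0 h and 4067 at 9 h in this line.

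**Figure D3:**
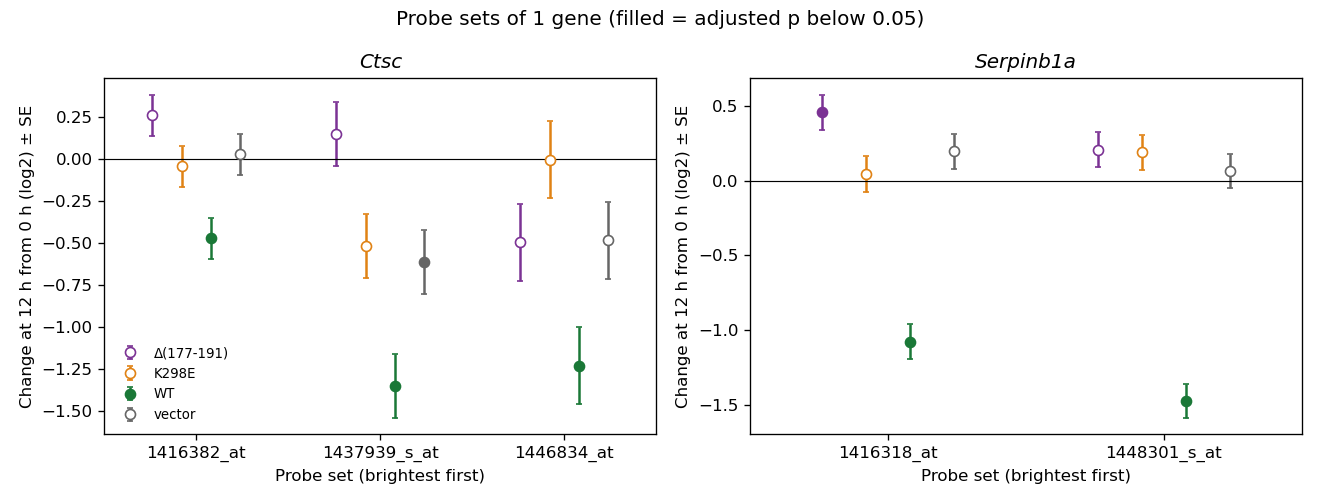
Change at 12 h from 0 h on the log2 scale, with its SE, at each probe set of Ctsc and of Serpinb1a, brightest first, in the Δ(177-191), K298E, WT and vector lines, filled where the limma adjusted p is below 0.05. The WT points are the lowest at every set, and the dimmer Ctsc sets lie below 0 in vector cells as well.

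Likeness of pattern was described by the Pearson correlation over the 16 group means, which share arrays, lines and times, among the genes whose group means varied by an SD of at least 0.5. The genes most like Prtn3 were Plppr3 (0.97), Csgalnact2 (0.93) and Stk26 (0.89), and those most like Mpo were Stom (0.88), Arsb (0.87), an azurophil and lysosomal sulfatase, and Stab1 (0.86). Ctsg was nearest to the chemokine gene Ccl6 (0.91), to Prtn3 itself (0.88) and to Gpr160 (0.87). Serpinb1a was nearest to C1qtnf1 (0.91), Tnks (0.91) and Dusp4 (0.90), and Cst7 to Casp6 (0.88), Mpp1 (0.86) and Casp4 (0.81), of which Casp6 and Casp4 code for caspases. Ctsc, which varied little, was nearest to Slfn2 (0.94), Gpr15 (0.88) and Cxcl10 (0.85). Elane had Mpo (0.78), Pdia4 (0.66) and Cep72 (0.66), and Ms4a3 had Prm2 (0.72), Gm45914 (0.69) and Alcam (0.68), at signals near the bottom of the scale. Among the enzymes themselves Prtn3 and Mpo correlated at 0.67 and Mpo and Ctsg at 0.75, while Ctsc ran against Prtn3 at -0.74.

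Plppr3, the gene most like Prtn3, is its direct neighbour in the RefSeq order of protein-coding genes, and Elane is the neighbour on the other side. These neighbours were looked at after the likeness was seen. Plppr3 had signals of 4, 3 and 3 in Δ(177-191) cells, 116, 99 and 78 in K298E cells, 82, 118 and 110 in WT cells, and 1, 5 and 3 in vector cells at 12 h. At 0 h they were 3, 2 and 9 in Δ(177-191) cells, 31, 31 and 62 in K298E cells, 57, 35 and 39 in WT cells, and 4, 7 and 17 in vector cells. Plppr3 was thus higher in K298E and WT cells than in the other 2 lines at both times, with no overlap. Its relative change at 12 h was 0.78 ± 0.53 in Δ(177-191) cells (limma adjusted p = 0.392), 2.19 ± 0.53 in K298E cells (adjusted p = 0.00761) and 2.16 ± 0.53 in WT cells (adjusted p = 0.00608). From its own 0 h the change at 12 h was 1.24 ± 0.37 in K298E cells (adjusted p = 0.0785) and 1.20 ± 0.37 in WT cells (adjusted p = 0.0126). In vector cells it was -0.96 ± 0.37 (adjusted p = 0.0848), at signals near the bottom of the scale. In K298E cells the change from 0 h passed at no time (adjusted p from 0.058 to 0.123). Of the genes farther out, Misp, Ptbp1 and Med16 had no relative change at 12 h that passed in any fusion line, with values from -0.25 for Ptbp1 in Δ(177-191) cells to 0.80 for Misp in K298E cells. Cfd, between Elane and Med16, was not analysed here.

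**Figure D4:**
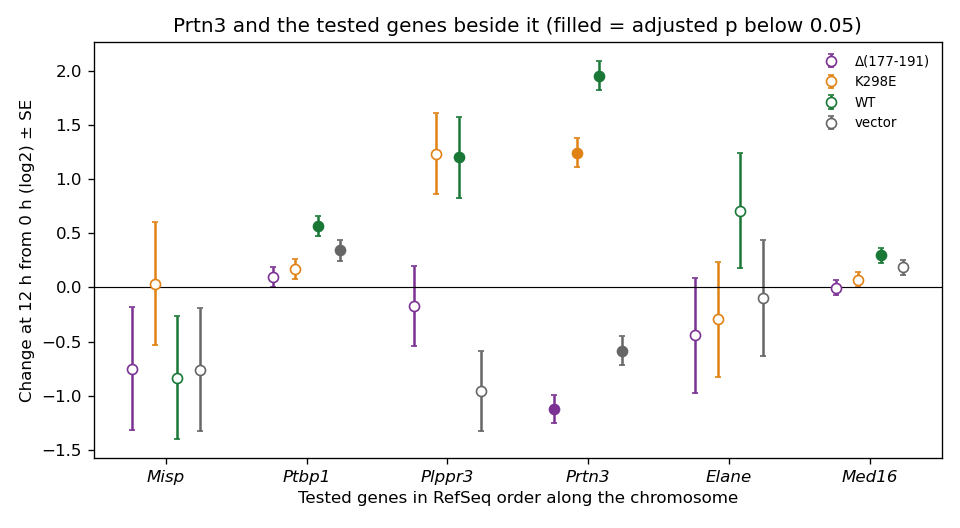
Change at 12 h from 0 h on the log2 scale, with its SE, for Prtn3 and the tested protein-coding genes beside it, in their order along the chromosome, in the Δ(177-191), K298E, WT and vector lines, filled where the limma adjusted p is below 0.05. Plppr3 and Prtn3 both lie above 0 in K298E and WT cells and below 0 in Δ(177-191) and vector cells. The values of Misp, Elane, Ptbp1 and Med16 stay within 1 of 0. Of these, Ptbp1 is filled in WT and vector cells and Med16 in WT cells.

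The 250 bases before the transcription start of the 4 enzyme genes are shown because Mpo, Prtn3 and Ctsg rose in WT cells and Elane did not pass the test. The sequences are from RefSeq, build GRCm38.p6, read 5′ to 3′ on the gene's strand. They lie at chr11:87793534-87793783 on the plus strand for Mpo, at chr10:79879417-79879666 plus for Prtn3, at chr10:79886062-79886311 plus for Elane and at chr14:56102575-56102824 minus for Ctsg. A window was held for 7 of the 8 genes. Capitals mark the ETS and PU.1 core GAGGAA and the MYB cores AACTG and AACGG, on either strand, so that CAGTT near the end of the Ctsg window is AACTG read on the other strand.
Mpo: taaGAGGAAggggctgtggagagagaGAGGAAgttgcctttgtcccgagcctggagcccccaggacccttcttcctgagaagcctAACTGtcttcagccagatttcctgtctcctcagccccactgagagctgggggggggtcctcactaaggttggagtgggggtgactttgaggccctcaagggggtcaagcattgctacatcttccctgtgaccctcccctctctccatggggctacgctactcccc
Prtn3: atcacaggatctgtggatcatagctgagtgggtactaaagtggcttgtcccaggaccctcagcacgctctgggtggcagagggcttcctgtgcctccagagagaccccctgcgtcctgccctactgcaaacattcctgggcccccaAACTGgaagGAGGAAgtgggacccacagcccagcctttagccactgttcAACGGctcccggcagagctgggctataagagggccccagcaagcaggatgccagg
Elane: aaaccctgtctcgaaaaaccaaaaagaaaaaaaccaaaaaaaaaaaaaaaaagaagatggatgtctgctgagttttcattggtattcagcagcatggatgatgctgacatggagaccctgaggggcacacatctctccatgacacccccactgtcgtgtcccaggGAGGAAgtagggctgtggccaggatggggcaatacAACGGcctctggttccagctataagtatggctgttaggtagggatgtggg
Ctsg: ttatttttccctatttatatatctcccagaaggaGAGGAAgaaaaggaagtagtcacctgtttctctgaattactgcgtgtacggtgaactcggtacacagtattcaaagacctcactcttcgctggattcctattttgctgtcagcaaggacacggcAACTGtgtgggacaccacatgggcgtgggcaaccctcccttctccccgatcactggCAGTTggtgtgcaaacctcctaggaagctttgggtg
Each of the 4 windows held GAGGAA and at least 1 of the MYB motifs AACTGN and AACGGN. The ETS core began 247 and 224 bases before the start in Mpo, 95 in Prtn3, 85 in Elane and 216 in Ctsg, and a MYB motif began 165 bases before it in Mpo, 104 and 55 in Prtn3, 50 in Elane and 92 and 37 in Ctsg. Of all 32851 windows 23.3% held GAGGAA, 39% AACTGN and 14.5% AACGGN, 48.5% held either MYB motif and 11.5% held GAGGAA with one. The C/EBP motifs TTNNGNAA and TTGCNNAA, present in 36.8% and 9.56% of windows, were in none of these 4. AACTGN was in Mpo, Prtn3 and Ctsg and AACGGN in Prtn3 and Elane, so that of these 3 motifs GAGGAA alone was in all 4. In the other windows TTNNGNAA was present in Ms4a3 and Cst7, GAGGAA in Ctsc and AACTGN in Cst7. The RUNX motif TGTGGT, held by 14% of windows, was in Ctsg and Cst7. A match describes the letters in the window, and is neither a site nor a cause.

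Other genes linked to the granule were read from lists. In each list a gene is called higher or lower by its relative change at 12 h, so a gene called higher may have fallen less than in vector cells. That call was made for 17.1% of all probe sets in Δ(177-191), 4.2% in K298E and 5.38% in WT cells. Among 16 other azurophil and lysosomal granule genes tested, 3 were higher and 4 lower relative to vector cells in Δ(177-191) cells at 12 h, 5 higher and none lower in K298E cells, and 2 higher and 1 lower in WT cells. The median change was 0.06, 0.37 and 0.01 in these lines, beside -0.04, 0.02 and -0.03 over all genes tested. In WT cells Arsb was higher by 1.47 ± 0.15 (limma adjusted p = 1.16e-09) and Gla, an alpha-galactosidase, by 1.07 ± 0.11 (adjusted p = 7.76e-10), and Psap, the gene of the saposin precursor, was lower at -0.45 (adjusted p = 0.0398). In K298E cells Cd68 was higher by 1.24 ± 0.11 (adjusted p = 2.14e-10) and the lysozyme gene Lyz2 by 1.15 ± 0.18 (adjusted p = 4.13e-05). The lysozyme genes went the other way in Δ(177-191) cells, at -2.28 ± 0.30 for Lyz1 (adjusted p = 1.56e-07) and -2.0 ± 0.18 for Lyz2 (adjusted p = 2.24e-11), which are near-identical genes that the probe sets may not separate. In this line Gla and Grn were higher, by 0.96 and 0.58. Lyz2 averaged 346 ± 32 at 12 h and 1929 ± 31.9 at 0 h in Δ(177-191) cells (SD, n = 3 each).

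Of 33 listed inhibitors of the serpin, cystatin and related families, 15 passed the filter. By the relative change at 12 h 4 of these were higher in Δ(177-191) cells, 1 in K298E cells and 1 in WT cells, where 1 more was lower, beside 17.1%, 4.2% and 5.38% of all probe sets called. The medians were 0.68, 0.48 and 0.01, beside the values over all genes given above. Slpi, the secreted inhibitor of elastase and cathepsin G, was higher in all 3 lines, by 2.28 ± 0.20 in Δ(177-191) cells (limma adjusted p = 9.06e-12), 1.75 ± 0.20 in K298E cells (adjusted p = 7.25e-08) and 2.07 ± 0.20 in WT cells (adjusted p = 3.28e-10). Its mean signal at 12 h was 1367 ± 159 in Δ(177-191), 639.7 ± 195 in K298E, 1827 ± 107 in WT and 148.3 ± 9.5 in vector cells (SD, n = 3 each). At 0 h Slpi averaged 563 ± 33.4, 369.7 ± 12.6, 873 ± 9.64 and 305.3 ± 60.5 in the same lines, and vector cells alone had a lower mean at 12 h than at 0 h. Serpinf1 was lower in WT cells, at -1.27 (adjusted p = 0.0221). The intracellular serpin gene Serpinb6a was higher in Δ(177-191) cells by 1.89 ± 0.32 (adjusted p = 1.49e-05).

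Of 6 other serine proteases of leukocyte granules that passed the filter, none changed relative to vector cells at 12 h in K298E or WT cells, and in Δ(177-191) cells 1 was higher and 1 lower, beside 4.2%, 5.38% and 17.1% of all probe sets called in these lines. The lower one was the granzyme gene Gzmb, at -3.26 ± 0.61 (limma adjusted p = 7.35e-05), and the higher one the chymase gene Cma1, at 2.06 ± 0.72 (adjusted p = 0.0413), whose mean signals were at most 12 in the 4 lines at these times. Gzmb averaged 6.67 ± 6.66 at 12 h and 119.7 ± 10.3 at 0 h in Δ(177-191) cells (SD, n = 3 each). Of 6 lysosomal cysteine proteases, which cystatins inhibit or which process them, 1 was higher and 1 lower in Δ(177-191) cells, none was called in K298E cells and 2 were lower in WT cells, beside 17.1%, 4.2% and 5.38% of all probe sets called. Lgmn, the legumain gene, was lower in Δ(177-191) cells at -2.62 (adjusted p = 0.0021), where Ctsb was higher by 0.63, and in WT cells at -2.35 (adjusted p = 0.0171), and the cathepsin S gene Ctss was lower in WT cells at -1.42 (adjusted p = 0.000144).

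Of 8 transcription factors known at primary granule genes, 3 were called for the relative change in each line at 12 h, beside 17.1% of all probe sets in Δ(177-191), 4.2% in K298E and 5.38% in WT cells. For the change from each line's own 0 h 4, 2 and 6 were called, beside 25.2%, 1.8% and 25.4%. Relative to the change in vector cells, Gfi1, a transcriptional repressor needed for granulocyte development, was higher in WT cells by 1.58 ± 0.14 (limma adjusted p = 2.86e-11) and in K298E cells by 0.65 ± 0.14 (adjusted p = 0.00278). Myb was lower in Δ(177-191) cells, at -2.28 ± 0.14 (adjusted p = 2.35e-16), with a mean of 160.3 ± 20.6 at 12 h and 768 ± 36.4 at 0 h (SD, n = 3 each). Runx1 was higher, on the same measure, in WT cells by 0.79 (adjusted p = 0.0319). Cebpb was higher in Δ(177-191) cells by 0.87 (adjusted p = 1.02e-05), as was Spi1, which codes for PU.1, by 0.41 (adjusted p = 0.0369). The relative change of Cebpa was 1.28 in K298E cells (adjusted p = 3.93e-05), where it fell less than in vector cells: it averaged 254 ± 15.7 at 12 h and 417.7 ± 23.2 at 0 h in K298E cells, and 45.67 ± 2.08 and 190.3 ± 10 in vector cells (SD, n = 3 each). Whether its probe set also detects the introduced C/EBPα was not tested.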

How the data were processed

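Expression was measured on 48 Affymetrix mouse arrays. The deposited values are a linear intensity per probe set, which the authors made with MAS5, per the submitters' processing notes; the trimmed means of the arrays, leaving out 2% at each end, were 99.46 to 99.81, so arrays are scaled to one level and carry no depth. No 2 arrays were identical. From the intensities log2(signal + 3) was computed, 3 being their 20th percentile. Probe sets with a group mean over 4.09 (signal 14) were kept. One limma 3.58.1 fit (R 4.3.3, eBayes with trend) over 16 groups of 3 arrays, with 32 residual df, tested all contrasts, with Benjamini-Hochberg adjustment and a threshold of 0.05. The test was checked on simulated data for the WT relative change at 12 h. It found 41 of 100 changes of 1 on the log2 scale and 61 of 100 changes of 2, with 4 false calls. A change that was not called is therefore not shown to be absent. The simulation changed 100 probe sets by each size, while 1461 were called in the real comparison, so its rates need not hold there. The genes and lists were chosen with earlier results of these data known. Named are the 8 genes, up to 2 genes of each list per direction, and the 3 most alike. Figures and motifs used Python 3.11.15. Alternatives covered pseudocounts, filters, normalization, array weights, replicate block, probe set choice and left-out arrays. Symbols came from GEO's platform annotation: 34945 probe sets have 1, 932 several and 9160 none.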

Additional observations from a re-analysis of the deposited data

Results flagged for a closer look

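The changes below differ between lines by the test of the difference itself (limma, adjusted over all probe sets). Relative to the change in vector cells, the 12 h values that differed were 4.61 for Mpo in WT cells, -0.54 in Δ(177-191), 1.83 in K298E and 2.54 in WT cells for Prtn3, 2.41 for Ctsg in WT cells, -1.27 for Serpinb1a in WT cells and 3.90 for Cst7 in Δ(177-191) cells. Between Δ(177-191) and WT cells the mean change differed by -2.34 for Mpo, -2.77 for Prtn3, -2.03 for Ctsg, 0.66 for Ctsc, 1.44 for Serpinb1a and 1.88 for Cst7. Between K298E and WT cells it differed by -2.96 for Mpo, -1.69 for Ctsg and 1.04 for Serpinb1a. Some of these calls were lost in alternative fits. For the relative change at 12 h they were Prtn3 in Δ(177-191) cells (15 fits) and Ctsg in WT cells (2 fits). For the mean change against WT they were Ctsc in Δ(177-191) cells (1 fit) and Ctsg in K298E cells (4 fits). With 3 arrays per group, no array was tested as an outlier.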

How the results depend on the processing

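No alternative reversed a called result of the 8 genes. Of the called results, 883 values with left-out arrays or replicates and 877 under other settings stayed past the threshold, and 77 and 29 did not; of the results not called, 33 and 66 passed. Without replicate 1, 2 or 3, or without single arrays, the number of the 8 genes called for the relative change ran from 0 to 1 at 6 h, 1 to 2 at 9 h and 1 to 2 at 12 h in Δ(177-191) cells, and from 1 to 2 at 6 h in WT cells. For the change from 0 h it ran from 1 to 3 at 6 h and 2 to 5 at 9 h in Δ(177-191) cells, from 1 to 2 at 6 h in WT cells and from 0 to 2 at 12 h in vector cells. In WT cells the relative change of Ctsg at 12 h, among the 4 called, was lost in 2 of these fits. Smaller shifts of a count are not all listed. In Δ(177-191) cells the relative count was 0 at 6 h with median centring; at 9 h it was 2 with a filter at a signal of 100, with the replicate block, with the compared arrays alone or with the mean of a gene's probe sets, and 3 with array weights; at 12 h it was 1 with a pseudocount of 32, with no filter or with median centring. In WT cells both counts at 6 h were 1 with median centring. For the change from 0 h the count was 2 in Δ(177-191) cells at 9 h with the compared arrays alone, and 2 in K298E cells at 6 and 9 h with the mean of probe sets. In vector cells it was 2 at 6 h with the compared arrays alone, the mean of probe sets or without the Δ(177-191) line (an alternative chosen after seeing the data), 2 at 9 h with the mean of probe sets, and 2 at 12 h with a pseudocount of 32, array weights, the compared arrays alone or the mean of probe sets. With the mean of probe sets 5 genes differed in mean change between K298E and WT cells and 2 at 0 h. The cause of these shifts was not tested. Replicate numbers were not taken to pair the samples, since not every same-numbered pair correlated above 0.1: over 360 such pairs the deviations correlated at -0.401 to 0.455 (median 0.023, 30.3% above 0.1), and over 720 pairs of different numbers the median was -0.015, with 19.7% above 0.1. With the replicate block 6 genes were called for the WT change at 9 h, and 4 for the WT relative change at 12 h. Signals near the bottom of the scale, as for Elane and Ms4a3, limit what could be detected, and a low signal has a wide interval. With a pseudocount of 32 the WT relative change at 12 h was 3.19 for Mpo and 1.53 for Ctsg.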
